A study of Homo sapiens with 12 samples.

Results

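The insulin-like growth factor (IGF) axis and its binding proteins were followed in WI-38 cells, a normal human lung fibroblast line, with and without TGF-β, the cytokine that turns fibroblasts into contractile, matrix-secreting myofibroblasts. The members were named by gene symbol as parts of this axis, with earlier results of these data known. They were the ligand genes IGF1 and IGF2, the receptor genes IGF1R and IGF2R, and the binding protein genes IGFBP2, IGFBP3, IGFBP4, IGFBP5, IGFBP6 and IGFBP7. These are 10 of the 25702 genes in the count table, and each was found there. All values are RNA levels, and protein was not part of these files.

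RNA of 12 flasks was sequenced, 3 per condition. D1 flasks were untreated and harvested at day 1, D1+ TGF-β flasks had TGF-β for 1 day, D20 flasks were untreated and harvested at day 20, and D20+ TGF-β flasks were kept with TGF-β for 20 days. All were the same WI-38 line in the same serum-containing medium, the dose was 2 ng/mL, and no genotype differed. The study's methods state that the day 20 flasks of a treatment came from 1 starting flask, so p-values there measure the spread between flasks grown from 1 source. The day 1 flasks were at passages 2 to 3 and the day 20 flasks at passages 5 to 6, so time in culture, passage and time with TGF-β cannot be told apart between days.

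IGF1 and IGF2 are secreted ligands that signal growth and survival through the tyrosine kinase receptor IGF1R. IGF2R is a mannose-6-phosphate receptor that takes IGF2 into the cell for degradation and does not signal growth. The IGF binding proteins are secreted, hold IGFs outside the cell and so limit or prolong their access to IGF1R. IGFBP3 and IGFBP5 are also known to bind matrix and to be raised in fibrotic lung. Proteases such as PAPPA cleave binding proteins and free the ligand.

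All 7 tested members, IGFBP3 to IGFBP7, IGF1R and IGF2R, had a level of at least 10 cpm, read counts scaled to the library total, in each of the 12 libraries. IGF1, IGF2 and IGFBP2 were below that level in each library and are described by their counts. A gene was called when its adjusted p was under 0.01 in the quasi-likelihood test of edgeR, adjusted by Benjamini and Hochberg's method over 9490 tested genes. Every adjusted p given is from that test unless another is named, and SE is the standard error of a log2 fold change. Over all tested genes, treated and untreated flasks did not overlap for 36.4% at day 1 and 58.3% at day 20. Flasks of the 2 days did not overlap for 63.2% of genes with TGF-β and 55.6% without it.

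Library totals ranged from 8674488 to 18286197 counts. All 10 fibroblast markers were above the filter, their summed level lying between 14221 and 24302 cpm. The 5 epithelial markers together stayed under 0.6 cpm, with KRT5 and KRT14 at 0, and of the leukocyte markers only CD68, which fibroblasts also express, passed the filter. Endothelial markers summed to at most 2.63 cpm, with CDH5 at 0. The second D1 flask and the third D20+ TGF-β flask stood apart from their groups: chi-square values per degree of freedom between flasks were 36.2 and 33.8 for pairs with the former and 26.5 and 19.1 for pairs with the latter, against 1.78 to 12.9 for all other pairs. Where a call or a printed log2 value of a member changed, the latter by over 1.5 times, without either flask, the value without it stands beside the result.

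IGFBP3 had the widest range of the tested members. Its levels in the D1 flasks were 26.6, 12.9 and 26.7 cpm, scaled by the TMM method for library composition. In D1+ TGF-β they were 341, 433 and 301 cpm. At day 1 the lowest flask with TGF-β was above 10 times the highest flask without it. At day 20 the untreated flasks held 31.8, 31.3 and 33.9 cpm. The D20+ TGF-β flasks held 166, 191 and 179 cpm, between the untreated flasks and those of D1+ TGF-β, with no overlap with either. In bulk RNA, fewer cells with a transcript and less of it per cell cannot be told apart.

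With TGF-β, IGFBP3 rose at day 1 by 4.04 on the log2 scale (SE 0.22, adjusted p = 6.32e-08), a 16.4-fold change. Among the genes called in that comparison it ranked 2 by the size of the change. At day 20 it rose by 2.46 (SE 0.21, adjusted p = 9.49e-07), or 5.52-fold, with rank 32. The response at day 20 was smaller by 1.57 (SE 0.29, adjusted p = 0.00194). Under TGF-β itself, IGFBP3 was lower at day 20 than at day 1, by a log2 fold change of -1.01 (SE 0.19, adjusted p = 7.05e-04). Without TGF-β the log2 difference between the days was 0.57 (SE 0.21, adjusted p = 0.0406) and was not called, although each D20 flask was above each D1 flask. Such a separation, in either direction, was seen for 55.6% of all tested genes. Without the second D1 flask the IGFBP3 difference was 0.27 (SE 0.14, adjusted p = 0.113). Of 5 listed contractile markers, 3 were tested. ACTA2, the smooth muscle actin of myofibroblasts, had a log2 response of 2.07 at day 1 and 0.13 at day 20. In the same order, TAGLN had 0.87 and 0.06, and CNN1 had 1.21 and -0.44. All 3 were called higher at day 1. At day 20 only CNN1 was called, and it was lower (SE 0.11, adjusted p = 0.00509). By staining for protein, the paper reports smooth muscle actin in most cells after the long treatment, but not after the short treatment. By western blot it also reports more of this protein at day 20 with TGF-β than without it. The part of these 3 contractile genes in the IGFBP3 difference was not tested.

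IGFBP5 moved the other way. Its protein is a binding protein held in the matrix. Its levels were 1176, 809 and 887 cpm in D1, and 439, 460 and 515 cpm in D1+ TGF-β. They were 2752, 2987 and 3557 cpm in D20, and 1043, 1238 and 652 cpm in D20+ TGF-β. Each flask with TGF-β was below each untreated flask of its day, and each D20 flask was above 2 times the highest D1 flask. IGFBP5 fell with TGF-β at day 1 by 1.02 on the log2 scale (SE 0.20, adjusted p = 0.00212) and at day 20 by 1.66 (SE 0.20, adjusted p = 2.41e-05). The log2 difference of the responses was -0.64 (SE 0.28, adjusted p = 0.116) and was not called, and without the third D20+ TGF-β flask it was -0.42 (adjusted p = 0.151). From day 1 to day 20 it rose by 1.70 without TGF-β (SE 0.20, adjusted p = 1.36e-05) and by 1.05 with it (SE 0.20, adjusted p = 6.91e-04). Only the call with TGF-β at day 1 rested on particular flasks: the adjusted p was 0.0137 without the first D1 flask, and 0.0141 and 0.0144 without the first and the second D1+ TGF-β flask.

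IGFBP6, which encodes a binding protein with a preference for IGF2, fell with TGF-β at both days. Its levels were 70.3, 67.7 and 63.6 cpm in D1 and 39.5, 42.0 and 48.2 cpm in D1+ TGF-β. At day 20 they were 85.3, 87.8 and 92.4 cpm without TGF-β and 38.7, 39.1 and 34.9 cpm with it. The flasks of a condition lay close together, and treated and untreated flasks were well apart at both days. IGFBP6 fell by 0.64 at day 1 (SE 0.08, adjusted p = 1.04e-04) and by 1.23 at day 20 (SE 0.08, adjusted p = 1.31e-07). The difference of the responses was -0.60 (SE 0.12, adjusted p = 0.00280), and it was not called without the third D20 flask (adjusted p = 0.0112). Untreated flasks rose by 0.40 from day 1 to day 20 (SE 0.08, adjusted p = 9.54e-04). With TGF-β the log2 difference between the days was -0.20 (SE 0.08, adjusted p = 0.0647).

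The sequences just before the start sites of these genes are shown because IGFBP3 moved against IGFBP5 and IGFBP6 in the same flasks. They are the 250 bases upstream of the RefSeq start in GRCh38.p14, written along the gene's strand, and 8 of the 10 members had an entry. Capitals mark matches on either strand to a TATA box (letters TATAAA), a GC box (letters GGGCGG), a first SMAD element (letters CAGAC), a second SMAD element (letters GGCGCC) or an AP-1 element (letters TGAGTCA). SMAD proteins carry the TGF-β signal to the nucleus. No matches overlapped in the windows shown.
IGFBP3, chr7:45921273-45921522, minus strand: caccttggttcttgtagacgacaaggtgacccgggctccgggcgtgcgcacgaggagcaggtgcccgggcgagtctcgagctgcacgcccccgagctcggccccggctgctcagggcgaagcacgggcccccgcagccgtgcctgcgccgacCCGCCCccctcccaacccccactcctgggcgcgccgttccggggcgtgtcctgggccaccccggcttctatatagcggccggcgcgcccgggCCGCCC
IGFBP5, chr2:216695550-216695799, minus strand: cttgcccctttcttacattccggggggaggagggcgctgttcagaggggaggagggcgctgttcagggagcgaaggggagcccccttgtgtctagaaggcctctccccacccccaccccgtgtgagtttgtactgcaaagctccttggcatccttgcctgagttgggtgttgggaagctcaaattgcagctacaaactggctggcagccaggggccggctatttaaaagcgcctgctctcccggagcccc
IGFBP6, chr12:53097417-53097666, plus strand: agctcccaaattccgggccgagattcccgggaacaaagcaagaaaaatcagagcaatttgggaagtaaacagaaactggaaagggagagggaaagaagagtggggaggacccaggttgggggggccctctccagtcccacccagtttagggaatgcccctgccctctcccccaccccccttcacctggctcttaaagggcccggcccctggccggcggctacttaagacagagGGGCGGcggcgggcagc
IGFBP3 held 2 GC boxes, both on the minus strand of the window, IGFBP6 held 1 GC box, and IGFBP5 matched none of the 5 letter patterns. None of these 3 windows held the exact letters searched for the TATA box, the AP-1 element or either SMAD element. Among the members not shown, IGFBP4 and IGF1R matched the second SMAD element and IGFBP4 also the TATA box. IGFBP2 matched the first SMAD element before some of its start sites. Variants of these letters were not searched, so a window without a match can still hold such an element. Of all 35114 promoter windows of this length, 42.6% held the GC box, 38.0% the first SMAD element, 16.4% the second SMAD element, 10.7% the TATA box and 4.20% the AP-1 element. These are letter matches in a short window and not measured binding.

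IGFBP4, whose protein is cut by PAPPA, was lower with TGF-β in every flask of both days but did not pass the test with the gene filter. Its levels were 401, 467 and 324 cpm in D1 and 242, 242 and 268 cpm in D1+ TGF-β. They were 685, 791 and 798 cpm in D20 and 590, 566 and 275 cpm in D20+ TGF-β, where the third flask was far below the other two. The log2 fold change with TGF-β was -0.67 at day 1 (SE 0.22, adjusted p = 0.0391) and -0.67 at day 20 (SE 0.22, adjusted p = 0.0239). Without a gene filter IGFBP4 was called at both days, at -0.69 (adjusted p = 0.00556) and -0.65 (adjusted p = 0.00410). Without the third D20+ TGF-β flask, which shares the estimate of the spread, the change at day 1 was called (log2 fold change -0.65, adjusted p = 7.45e-04), and that at day 20 was -0.37 (SE 0.12, adjusted p = 0.0311). From day 1 to day 20 IGFBP4 rose by 0.93 without TGF-β (SE 0.22, adjusted p = 0.00289) and by 0.93 with it (SE 0.22, adjusted p = 0.00320).

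Both of these IGFBP4 calls rested on few flasks. The call without TGF-β was lost without the first or the third D1 flask (adjusted p = 0.0114 and 0.0181) and without the second or the third D20 flask (adjusted p = 0.0121 and 0.0127). The call with TGF-β was lost without the first or the second D1+ TGF-β flask (adjusted p = 0.0160 and 0.0172) and without the first or the second D20+ TGF-β flask (adjusted p = 0.0189 and 0.0164).

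IGFBP7 is a relative of the binding proteins with low affinity for IGFs. With TMM factors and the gene filter, it passed the test over all flasks only between the untreated flasks of the 2 days. Its levels were 368, 372 and 362 cpm in D1 and 454, 481 and 467 cpm in D1+ TGF-β. They were 658, 775 and 807 cpm in D20 and 726, 741 and 468 cpm in D20+ TGF-β. The D1+ TGF-β flasks all lay above D1, while the treated and untreated flasks of day 20 overlapped. IGFBP7 rose from day 1 to day 20 without TGF-β by 1.02 (SE 0.14, adjusted p = 4.39e-05). With TGF-β the log2 difference between days was 0.47 (SE 0.14, adjusted p = 0.0129), and it was called without the third D20+ TGF-β flask (adjusted p = 3.40e-05) and by DESeq2 (adjusted p = 0.00288). It was also called by edgeR without a gene filter (adjusted p = 0.00768) and without composition factors (adjusted p = 0.00703). The log2 response to TGF-β was 0.35 at day 1 (adjusted p = 0.0849) and -0.21 at day 20 (adjusted p = 0.239), with a difference of -0.56 (SE 0.19, adjusted p = 0.0566). Without the third D20+ TGF-β flask, the response at day 1 was called (0.36, SE 0.08, adjusted p = 0.00277), that at day 20 was -0.01 (adjusted p = 0.954), and the difference was -0.37 (adjusted p = 0.0306).

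IGFBP2 had 9 to 92 counts per library and lay under the filter. Its mean was 5.66 ± 1.95 cpm in D1, 4.02 ± 0.646 in D1+ TGF-β, 3.55 ± 0.662 in D20 and 2.31 ± 1.38 in D20+ TGF-β (SD, n = 3). In a fit that kept 13768 genes by the filterByExpr rule, the adjusted p of IGFBP2 in edgeR's quasi-likelihood test was 0.359 and 0.249 for TGF-β at day 1 and day 20, and 0.0888 and 0.0963 for day 20 against day 1 with and without TGF-β.

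**Figure D1:**
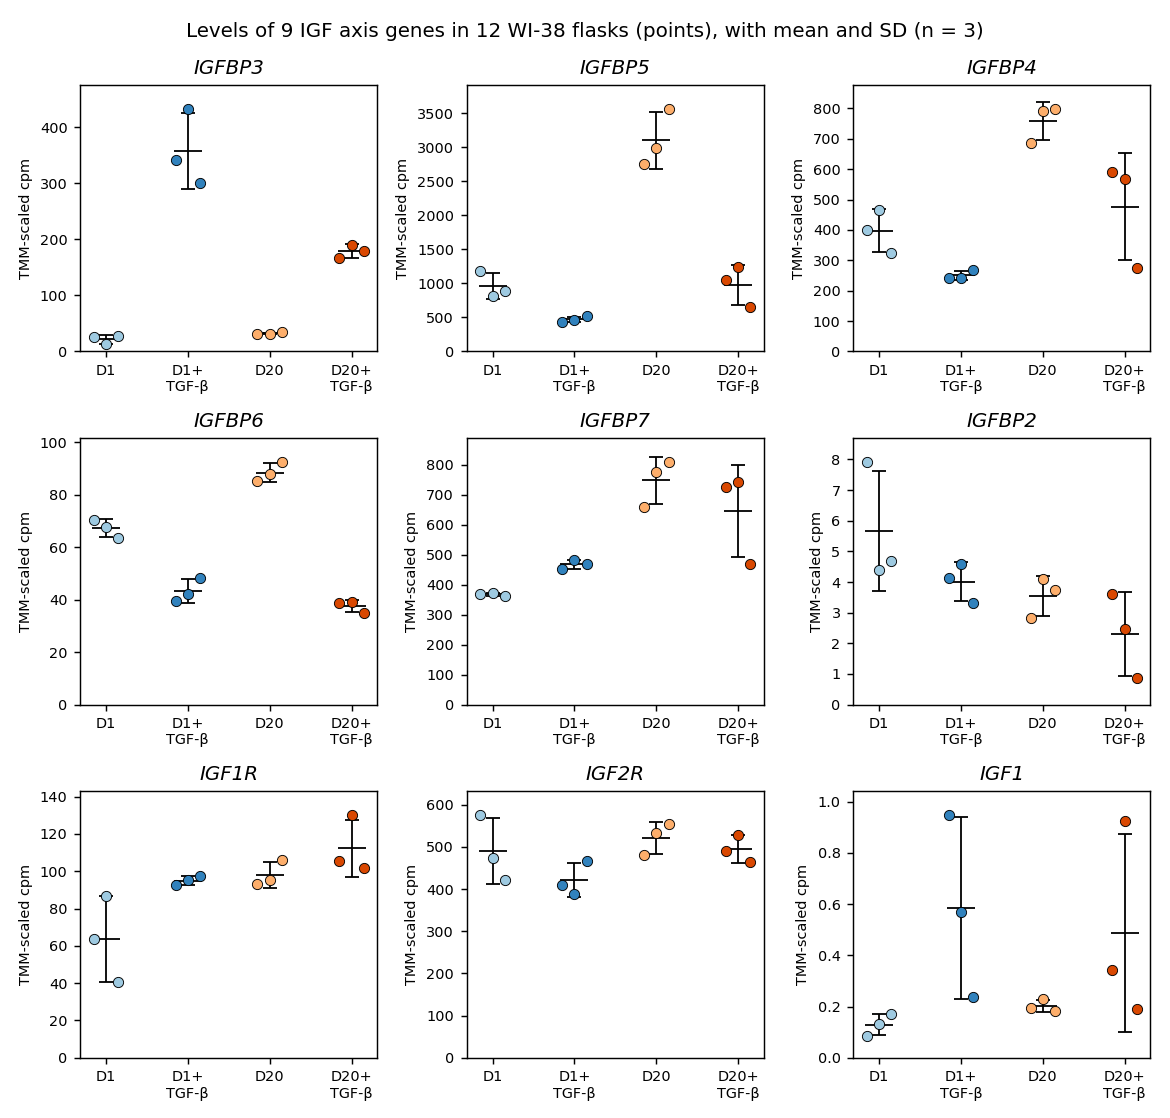
TMM-scaled cpm (y axis, from 0) of 9 genes in each of the 12 flasks (points) by condition, with the mean and SD of 3 flasks (bars). IGF2 is left out because its count was 0 in all flasks. IGFBP3 sits between 12.9 and 33.9 cpm in untreated flasks and between 166 and 433 cpm with TGF-β, while IGFBP5 peaks in D20 at 2752 to 3557 cpm.

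Neither receptor gene was called in the edgeR fit of all flasks with the gene filter and no block for the flask number. IGF1R was at 63.8, 86.6 and 40.8 cpm in D1, at 92.4, 95.2 and 97.3 cpm in D1+ TGF-β, at 93.1, 95.2 and 106 cpm in D20 and at 105, 130 and 102 cpm in D20+ TGF-β. The D1 flasks were both the lowest and the most scattered. The log2 fold change with TGF-β was 0.57 at day 1 (SE 0.19, adjusted p = 0.0418) and 0.19 at day 20 (SE 0.18, adjusted p = 0.428), and that of D20 vs D1 was 0.62 (SE 0.19, adjusted p = 0.0144). The day 20 against day 1 difference was called by DESeq2 (0.61, adjusted p = 0.00351), by limma-voom on 12 libraries (0.68, adjusted p = 0.00922) and by edgeR without a gene filter (0.54, adjusted p = 0.00636). That difference was also called by edgeR with the flask number as a block (0.65, adjusted p = 0.00862). Without the second D1 flask, the day 1 change with TGF-β was 0.86 (adjusted p = 8.31e-04) and D20 vs D1 was 0.90 (adjusted p = 2.08e-04), and both were called.

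IGF2R held 421 to 575 cpm in D1, 389 to 466 cpm in D1+ TGF-β, 480 to 553 cpm in D20 and 464 to 529 cpm in D20+ TGF-β. The flasks of all 4 comparisons overlapped. Its adjusted p ranged from 0.0981 to 0.600 over them, and the largest log2 difference in size was 0.23 (SE 0.11), for D20+ TGF-β against D1+ TGF-β.

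The ligands were at the edge of detection. IGF1 had 50 counts in all libraries together, 1 to 10 per library. Counts were 1, 2 and 2 in D1, 8, 10 and 2 in D1+ TGF-β, 2, 3 and 3 in D20 and 6, 9 and 2 in D20+ TGF-β. In a fit without a filter on low counts the log2 fold change with TGF-β was 2.06 at day 1 (SE 0.71, adjusted p = 0.0508) and 1.16 at day 20 (SE 0.66, adjusted p = 0.233), so no difference was detectable at this depth.

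IGF2 had 0 counts in all 12 libraries. A count of 0 allows up to 3 counts, or 0.164 to 0.346 cpm depending on the library, for counting error only. IGF2 shares exons on the same strand with INS-IGF2, which also had 0 counts, as did IGF2-AS. H19, the non-coding RNA next to IGF2, had 0 to 2 counts. How reads shared by overlapping genes were counted is not given in the sources used here, and its part in the IGF2 count was not tested.

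In GRCh37 coordinates, IGFBP2 and IGFBP5 lie beside each other on chromosome 2, at chr2:217497551-217529159 on the plus strand and chr2:217536828-217560272 on the minus strand. IGFBP3 lies at chr7:45951844-45961473 (minus), IGFBP4 at chr17:38599702-38613977 (plus), IGFBP6 at chr12:53491220-53496129 (plus) and IGFBP7 at chr4:57896939-57976551 (minus). IGF1R spans chr15:99191768-99507759 (plus) and IGF2R chr6:160390114-160534539 (plus). IGF1 lies at chr12:102789652-102875522 and IGF2 at chr11:2150342-2179621, both on the minus strand. Counts are over whole genes. IGFBP5, IGFBP7, IGF1, IGF2, IGF1R and IGF2R overlap a gene on the opposite strand (DIRC3-AS1 for IGFBP5, POLR2B and IGFBP7-AS1 for IGFBP7), and whether the counting used strand is not given, so reads of such partners could not be separated. IGFBP2, IGFBP3, IGFBP4 and IGFBP6 overlap no annotated gene.

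Of the 7 tested members, 3 were called for TGF-β at day 1, where 13.4% of all tested genes were called. IGFBP3 rose and IGFBP5 and IGFBP6 fell, against backgrounds of 6.89% of genes called higher and 6.50% called lower. At day 20 the same 3 were called in the same directions, with 27.5% of all genes called, 12.8% higher and 14.7% lower. Between the days under TGF-β, 3 members were called (IGFBP4 and IGFBP5 higher, IGFBP3 lower), where 34.8% of genes were called, 17.2% higher and 17.7% lower. For D20 vs D1, IGFBP4, IGFBP5, IGFBP6 and IGFBP7 were called, all higher, against 36.4% of genes called, 18.9% higher and 17.6% lower. The difference of the TGF-β responses was called for IGFBP3 and IGFBP6, both negative, where 10.4% of genes were called, 4.51% positive and 5.87% negative. These comparisons share flasks and are not independent.

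The members' median log2 fold change was -0.22 for TGF-β at day 1 and -0.21 at day 20, beside -0.02 and 0.01 over all tested genes. For D20 vs D1 it was 0.62, beside 0.01 over all genes, and between the days under TGF-β it was 0.24, beside 0.01.

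**Figure D2:**
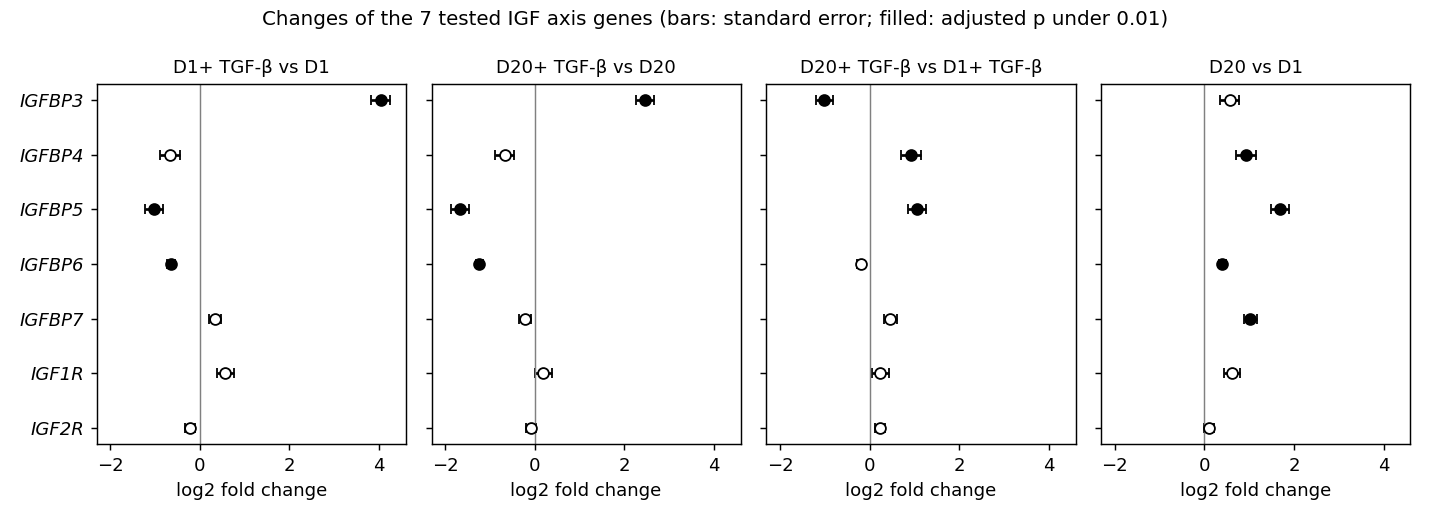
Log2 fold change (x axis) with its standard error (bars) of the 7 tested members in 4 comparisons, filled where the adjusted p was under 0.01. IGFBP3 lies at 4.04 and 2.46 with TGF-β, IGFBP5 and IGFBP6 lie left of 0 with TGF-β at both days, and IGFBP4 to IGFBP7 lie right of 0 in D20 vs D1.

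To compare levels between genes, cpm were divided by the length of the canonical transcript in kilobases. On this scale IGFBP7 was the highest member in D1 at 257 ± 3.76 cpm per kilobase, followed by IGFBP4 at 180 ± 32.4 and IGFBP5 at 153 ± 31.0, whose flasks overlapped. IGFBP6 followed at 70.9 ± 3.57 and IGF2R at 34.8 ± 5.55. IGFBP3 at 8.45 ± 3.05 and IGF1R at 5.21 ± 1.87 came next, then IGFBP2 at 3.10 to 5.59, and neighbours among these 3 overlapped (SD, n = 3).

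In D1+ TGF-β the order changed, with IGFBP3 at 137 ± 25.8 cpm per kilobase below IGFBP7 at 327 ± 9.69. IGFBP3 overlapped with IGFBP4, which followed at 114 ± 6.95. IGFBP5 at 75.5 ± 6.33 and IGFBP6 at 45.7 ± 4.75 were apart from their neighbours. In D20, IGFBP7 at 523 ± 55.1 and IGFBP5 at 497 ± 66.4 overlapped and were above IGFBP4 at 344 ± 28.6, and IGFBP3 was at 12.4 ± 0.533. In D20+ TGF-β, IGFBP7 was at 452 ± 108 and IGFBP3 at 68.4 ± 4.68. Between them, IGFBP4 at 216 ± 79.6 and IGFBP5 at 157 ± 47.9 overlapped. IGF2R stayed between 30.0 and 37.1 cpm per kilobase in the condition means and IGF1R between 5.21 and 9.18. These orders between genes depend on the transcript length used. The canonical transcript of IGFBP3 has 2613 bases and all its annotated exons 4569, while IGFBP4 has 2205 by either length. With the length of all annotated exons, IGFBP3 would lie below IGFBP4 in D1+ TGF-β, and IGFBP5 above IGFBP7 in D20.

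The 6 binding protein genes summed to 674 ± 47.8 cpm per kilobase in D1, 702 ± 30.4 in D1+ TGF-β, 1472 ± 148 in D20 and 935 ± 236 in D20+ TGF-β. Within that sum, IGFBP3 took 1.26 ± 0.479% in D1 and 19.5 ± 3.05% in D1+ TGF-β. It took 0.845 ± 0.0691% in D20 and 7.70 ± 2.32% in D20+ TGF-β. IGFBP5 took 22.7 ± 3.62%, 10.8 ± 0.919%, 33.7 ± 1.62% and 16.6 ± 1.37% in the same order of conditions, so the flasks with TGF-β were below the untreated flasks at each day. IGFBP7 took 38.3 ± 2.38% and 35.5 ± 0.831% in D1 and D20, and 46.6 ± 0.638% and 48.5 ± 0.922% with TGF-β. IGFBP2 took under 1% throughout. These shares are descriptions without a test, and they depend on the transcript length used.

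**Figure D3:**
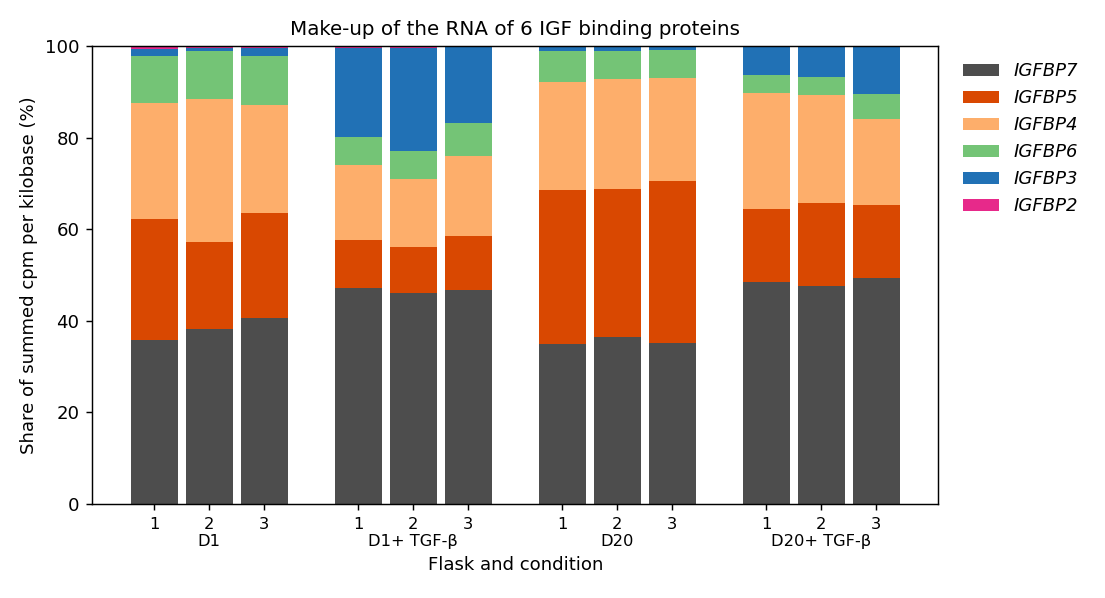
Share (%, y axis) of each of 6 binding protein genes in their summed cpm per kilobase, 1 bar per flask, grouped by condition. The IGFBP3 band widens from at most 1.64% to between 16.5 and 22.6% with TGF-β at day 1, and the IGFBP5 band is widest in D20, at 32.2 to 35.4%.

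A list of 11 genes held IGFBP1 and the carriers, proteases and protease inhibitors of the IGF system, of which 7 were tested. With TGF-β at day 1, 2 were called, and at day 20, 2 others, both higher, where 13.4% and 27.5% of all tested genes were called. ADAM12, a membrane protease that cleaves IGFBP3 and IGFBP5, was at 14.9 to 24.9 cpm in D1 and at 79.1, 85.8 and 67.7 cpm in D1+ TGF-β. It rose by 2.05 at day 1 (SE 0.18, adjusted p = 4.82e-06), and at day 20 its log2 fold change was -0.10, with treated flasks at 19.1, 18.2 and 12.0 cpm. STC2, a stanniocalcin that blocks PAPPA, fell by 0.57 at day 1 (SE 0.08, adjusted p = 2.39e-04).

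PAPPA, the protease of IGFBP4 and IGFBP5, was at 186, 181 and 182 cpm in D20 and at 556, 499 and 226 cpm in D20+ TGF-β. All treated flasks were above the untreated ones, with the third flask again the lowest. It rose by 1.22 at day 20 (SE 0.23, adjusted p = 9.61e-04), and its log2 fold change at day 1 was 0.35 (SE 0.24, adjusted p = 0.298), but the difference between these responses was not called (0.87, SE 0.33, adjusted p = 0.0771). HTRA1, a secreted serine protease that cleaves IGFBP5, rose by 0.76 at day 20 (SE 0.10, adjusted p = 4.74e-05).

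Between the days under TGF-β, 5 of the 7 were called, 3 higher and 2 lower, where 34.8% of all genes were called. ADAM12 fell by 2.23 (SE 0.19, adjusted p = 2.13e-06), PAPPA rose by 1.49 (SE 0.24, adjusted p = 1.93e-04), and FURIN, a proprotein convertase, fell by 0.82 (SE 0.11, adjusted p = 3.94e-05). Without TGF-β, 2 were called, STC1 lower and STC2 higher, where 36.4% of all genes were called. STC1, another inhibitor of PAPPA, was at 313, 1199 and 378 cpm in D1 and at 180, 175 and 147 cpm in D20. The second D1 flask was far above the others, and the log2 fold change was -1.92 (SE 0.41, adjusted p = 0.00166) with it and -1.06 (SE 0.23, adjusted p = 0.00158) without it.

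Below the receptor, 8 of 12 listed receptor relatives and adaptors were tested. With TGF-β, 0 were called at day 1 and 4 at day 20, of which 2 rose and 2 fell (13.4% and 27.5% of all genes were called). IRS2, an adaptor that links IGF1R and the insulin receptor to PI3K, rose by 0.82 (SE 0.09, adjusted p = 1.23e-05), from 27.0 to 29.5 cpm in the D20 flasks to 47.9 to 50.7 cpm with TGF-β. The adaptors SHC1 and GRB2, which lead to the RAS-MAPK branch, fell by 0.59 (SE 0.07, adjusted p = 2.80e-05) and by 0.38 (SE 0.06, adjusted p = 1.95e-04). Between the days, 5 were called with TGF-β, 4 of them higher, and 3 without it, all higher (34.8% and 36.4% of all genes). IRS2 rose by 0.92 (SE 0.09, adjusted p = 8.08e-06) with TGF-β. GAB1, a docking protein, rose by 0.69 (SE 0.11, adjusted p = 2.45e-04) with TGF-β and by 0.95 (SE 0.11, adjusted p = 1.12e-05) without it.

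Of 23 genes of the PI3K-AKT-mTOR branch, 20 were tested. With TGF-β, 2 of 20 were called at day 1, 1 in each direction, and 3 of 20 at day 20, all lower, where 13.4% and 27.5% of all genes were called. PIK3R3, a regulatory subunit of PI3K, was at 61.0, 66.2 and 65.8 cpm in D20 and 39.8, 44.6 and 40.9 cpm in D20+ TGF-β, and it fell by 0.63 (SE 0.07, adjusted p = 1.55e-05). PIK3IP1, an inhibitor of PI3K, fell by 0.54 (SE 0.10, adjusted p = 5.66e-04). Between the days, 5 of 20 were called with TGF-β, all higher, and 7 of 20 without it, 6 of them higher, where 34.8% and 36.4% of all genes were called. Taken over both directions, each of these counts was near or below the background. By direction, 17.2% of all genes were called higher between the days with TGF-β and 18.9% without it. With TGF-β at day 20, 14.7% were called lower. Without TGF-β, PIK3IP1 rose by 1.34 (SE 0.10, adjusted p = 3.05e-07), PIK3R3 by 1.20 (SE 0.07, adjusted p = 8.66e-08) and FOXO3, a transcription factor held back by AKT, by 0.81 (SE 0.09, adjusted p = 5.64e-06). With TGF-β, PIK3IP1 rose by 1.33 (SE 0.10, adjusted p = 1.35e-06) and PIK3R3 by 0.73 (SE 0.08, adjusted p = 8.72e-06).

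Other genes with a domain of the IGFBP type were fewer, with 4 of 12 tested. With TGF-β at day 1, CCN3 fell by 1.40 (SE 0.10, adjusted p = 7.64e-07), from 36.4 to 42.1 cpm in D1 to 12.9 to 17.1 cpm with TGF-β, and CCN1 rose by 0.83 (SE 0.11, adjusted p = 1.06e-04). Both are matricellular proteins, and these 2 were the genes called among the 4 tested, where 13.4% of all genes were called. At day 20, where 27.5% of all genes were called, CRIM1, a membrane protein that binds bone morphogenetic proteins, was the 1 gene called among the 4, falling by 0.92 (SE 0.08, adjusted p = 1.93e-06). Between the days under TGF-β all 4 tested were called (34.8% of all genes), CCN2 lower by a log2 fold change of -1.27 (SE 0.21, adjusted p = 2.57e-04), CCN1 by -0.86 and CRIM1 by -0.58, and CCN3 higher. Without TGF-β, 2 of 4 were called (36.4% of all genes), with CCN3 at -1.17 (SE 0.10, adjusted p = 7.98e-07) and CRIM1 at 0.46 (SE 0.08, adjusted p = 4.24e-04).

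Listed genes under the filter were read in the filterByExpr fit, and the following were chosen after their values were seen. ESM1, an endothelial proteoglycan gene, was at 0.399 to 1.45 cpm in D1 and 6.28 to 6.98 cpm in D1+ TGF-β, with a log2 fold change of 2.70 (adjusted p = 2.62e-05 in edgeR's quasi-likelihood test). With TGF-β at day 20 its log2 fold change was 1.60 (adjusted p = 0.00188). PAPPA2, a listed protease gene, rose there by 2.63 (adjusted p = 2.65e-04), from 0.0970 to 0.673 cpm in D20 to 1.85 to 2.87 cpm in D20+ TGF-β. KAZALD1 rose there by 0.9975 (adjusted p = 3.84e-05). CCN4, another matricellular protein gene, was at 1.87 to 4.05 cpm in D1, 1.02 to 1.07 cpm in D1+ TGF-β, 33.9 to 43.1 cpm in D20 and 7.17 to 32.3 cpm in D20+ TGF-β. Its log2 fold change between the days was 4.32 with TGF-β (adjusted p = 1.85e-05) and 3.72 without it (adjusted p = 5.77e-06), against the direction of CCN1 and CCN2 under TGF-β.

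Of the 4 genes of the IGF2 locus and the IGF2 mRNA binding proteins, 3 were tested and 1 was called in 1 comparison, IGF2BP1 in D20 vs D1 with a log2 fold change of -0.43 (SE 0.12, adjusted p = 0.00884).

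The median log2 fold change of the tested carriers and proteases was -0.01 and -0.002 with TGF-β at day 1 and day 20, and 0.28 and -0.08 between the days with and without TGF-β. In the same order it was 0.01, 0.18, 0.27 and 0.095 for the adaptors, -0.03, -0.08, 0.14 and 0.02 for the PI3K branch, 0.44, -0.38, -0.72 and 0.12 for the genes with an IGFBP-type domain, and 0.26, 0.08, -0.35 and -0.11 for the IGF2 locus and mRNA binding proteins. Over all tested genes it was -0.02, 0.01, 0.01 and 0.01.

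Several of these calls lay close to the threshold and were lost when 1 library was left out. For IGF2BP1 this was so for 9 of the 12 libraries, with an adjusted p of 0.0103 to 0.0353, and without the second D1 flask its log2 fold change was -0.23 (SE 0.07). For the insulin receptor gene INSR, it was so for 8 libraries between the days under TGF-β (log2 fold change 0.53) and 9 in D20 vs D1 (0.52), with adjusted p up to 0.0458 and 0.0454. For PDPK1 at day 20 with TGF-β (-0.27) it was so for 9 libraries, with adjusted p up to 0.0422, and for STC2 and SHC1 in D20 vs D1 (0.32 and 0.29) for 8 and 7 libraries, with adjusted p up to 0.0233 and 0.0253. PIK3IP1 at day 1 with TGF-β (-0.54) was lost without the first D1 flask and the first or second D1+ TGF-β flask (adjusted p = 0.0111, 0.0101 and 0.0203). FOXO3 there (0.40) was lost without the third D1 flask or any D1+ TGF-β flask (adjusted p = 0.0101 to 0.0167). PIK3R1 between the days under TGF-β (0.47) was lost without the first D1+ TGF-β flask (adjusted p = 0.0117).

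**Figure D4:**
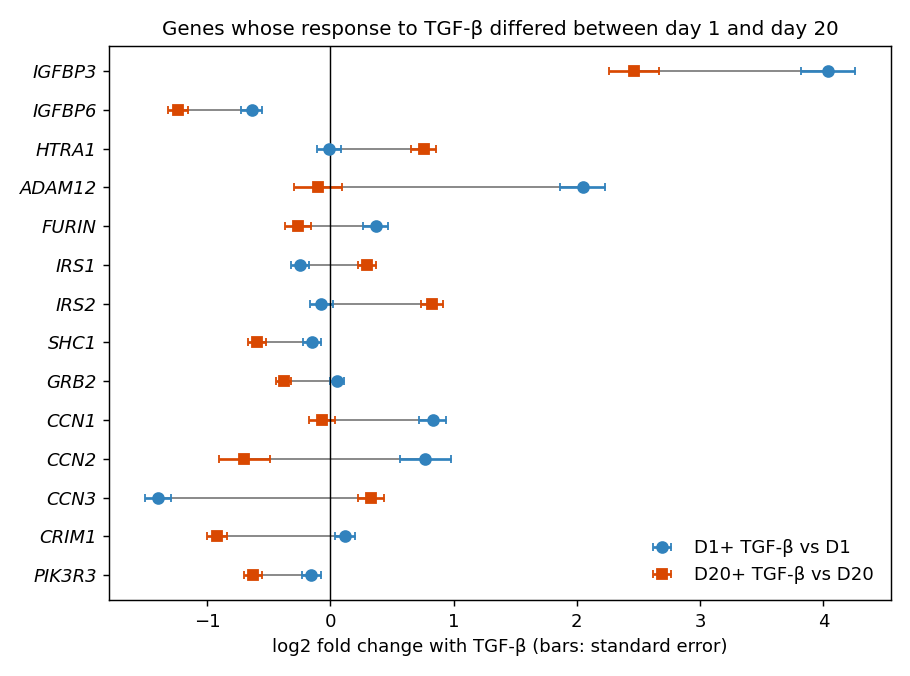
Log2 fold change with TGF-β (x axis, bars are standard errors) at day 1 (circles) and day 20 (squares) for the 14 genes of the members and lists whose response differed between the days at an adjusted p under 0.01. IGFBP3 moves from 4.04 to 2.46, ADAM12 from 2.05 to -0.10, and IGFBP6 from -0.64 to -1.23.

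The genes whose log2 cpm followed a member most closely over the 12 libraries were found by Pearson correlation, as a description only, since the points share conditions and libraries. LRRC17 (r = 0.988) and KCNH1 (0.985) were nearest to IGFBP3, and GALNT5 (0.989) and ADM (0.989) to IGFBP5. ALDH2 (0.984) and COL4A5 (0.983) were nearest to IGFBP4, PTGR1 (0.980) and XPO6 (0.978) to IGFBP6, and GCLC (0.967) and LGR4 (0.966) to IGFBP7.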

How the data were processed

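The members, gene lists and tests were chosen with earlier results of these data known. WI-38 flasks were grouped by their labels into 4 conditions of 3. The authors' reads were trimmed by Trimmomatic and aligned by Rsubread to the hg19 (GRCh37) genome. The deposited counts are raw and unfiltered, for 25702 genes in 48 lane columns, and the deposited log2 values are cpm from voom for 9412 genes, used here only for 1 alternative. The counting program and its use of strand are not given in the sources used here.

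The 4 lanes of a library were summed. The 9490 genes reaching 10 cpm in 6 or more libraries were tested in R 4.3.3 with edgeR 4.0.16: TMM factors, quasi-likelihood test, a mean for each condition fitted on all 12 libraries, and p-values adjusted by Benjamini-Hochberg. Calls needed an adjusted p under 0.01. The common biological coefficient of variation was 9.35%. Nothing says that the flasks of a condition were separate cultures before the experiment, so p-values measure only the spread between flasks. The scripts were tested on simulated data. A count of 0 was given a limit of 3 counts. Transcript lengths and positions are from GENCODE on GRCh37 and promoters from RefSeq (GRCh38.p14).

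All 10 members were named. From each other list, at most 3 called genes per comparison with the largest log2 fold change were named, and for each tested member spanning more than 1 on the log2 scale, the 2 genes with the highest correlation. The alternatives were DESeq2 1.42.0, limma 3.58.1, other scalings and filters, only the libraries compared, a replicate block, each library left out, a threshold of 0.05 and, chosen after seeing the data, the length of all annotated exons.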

Additional observations from a re-analysis of the deposited data

Results flagged for a closer look

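In 14 of the 49 tested members and listed genes the response to TGF-β at day 20 differed from that at day 1 by edgeR's quasi-likelihood test of the difference (adjusted p under 0.01), where 10.4% of all tested genes were called. The log2 difference, day 20 minus day 1, was -1.57 for IGFBP3 (4.04 at day 1 and 2.46 at day 20, adjusted p = 0.00194) and -0.60 for IGFBP6 (-0.64 and -1.23, adjusted p = 0.00280). Among the listed carriers, proteases and protease inhibitors it was -2.15 for ADAM12 (2.05 and -0.10, adjusted p = 1.38e-04), 0.77 for HTRA1 (-0.01 and 0.76, adjusted p = 0.00189) and -0.63 for FURIN (0.37 and -0.26, adjusted p = 0.00863).

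Among the adaptors it was 0.90 for IRS2 (-0.07 and 0.82, adjusted p = 5.09e-04), 0.55 for IRS1 (-0.24 and 0.30, adjusted p = 0.00249), -0.44 for SHC1 (-0.15 and -0.59, adjusted p = 0.00787) and -0.43 for GRB2 (0.05 and -0.38, adjusted p = 0.00257). Among genes with an IGFBP-type domain it was 1.73 for CCN3 (-1.40 and 0.33, adjusted p = 7.78e-06), -1.47 for CCN2 (0.77 and -0.70, adjusted p = 0.00329), -1.04 for CRIM1 (0.12 and -0.92, adjusted p = 6.88e-05) and -0.90 for CCN1 (0.83 and -0.07, adjusted p = 0.00122). In the PI3K branch it was -0.47 for PIK3R3 (-0.16 and -0.63, adjusted p = 0.00658).

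The calls of IGFBP6, FURIN, SHC1, CCN2 and PIK3R3 did not hold without particular libraries. For IGFBP6 the adjusted p was 0.0112 without the third D20 flask. For CCN2 it rose to at most 0.0115 without the second or the third D1+ TGF-β flask, the third D20 flask or the first D20+ TGF-β flask. For FURIN, SHC1 and PIK3R3 it rose above the threshold without any 1 of 10, 10 and 8 libraries, to at most 0.0284, 0.0246 and 0.0220.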

How the results depend on the processing

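No member or named gene changed direction where it was called, over the alternatives run. Of the results of single genes under alternatives, 1726 kept their call or lack of it, 136 lost a call and 35 gained one. These counts include the looser threshold of 0.05, under which the values themselves do not change. Treating the 48 lanes as samples, which counts lanes of 1 library as replicates, raised the members called to 7 and 5 for TGF-β at day 1 and day 20, 6 between the days under TGF-β and 5 for the difference of responses. At an adjusted p under 0.05, 5 were called for TGF-β at day 1. Leaving out 1 library gave 2 to 5 members for TGF-β at day 1 (5 without the third D20+ TGF-β flask), 3 for TGF-β at day 20, 2 to 4 and 3 to 5 for day 20 against day 1 with and without TGF-β, and 1 to 2 for the difference of responses (1 without the third D20 flask).

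Same-numbered flasks did not deviate together (correlations of -0.226 to 0.026), so the numbers do not pair flasks. With the replicate block, IGF1R in D20 vs D1 was called (adjusted p = 0.00862), and PDPK1 at day 20 with TGF-β, INSR between the days under TGF-β, IGF2BP1 in D20 vs D1 and the differences of responses of SHC1 and PIK3R3 were not (adjusted p = 0.0102 to 0.0156). Fitting only the libraries compared ended the IGFBP4 call between the days under TGF-β (adjusted p = 0.0119) and the D20 vs D1 calls of STC2, INSR, SHC1 and IGF2BP1 (0.0244 to 0.0329), made a call for IGFBP4 with TGF-β at day 1 (adjusted p = 0.00557) and could give no difference of responses, which needs all 12 libraries. Without composition factors, the D20 vs D1 calls of STC2, INSR and SHC1, that of PDPK1 and the differences of FURIN, SHC1 and PIK3R3 were lost (0.0183 to 0.0252). Without a gene filter, those of PDPK1, INSR (both comparisons of days), STC2, SHC1 (D20 vs D1 and the difference) and the PIK3R3 difference were lost (0.0125 to 0.0568), and with filterByExpr those of INSR (both), STC2 and SHC1 between the days (0.0124 to 0.0148). Leaving out the gene filter also gained calls for IGFBP4 with TGF-β at day 1 and day 20 (0.00556 and 0.00410). It gained IGFBP7 between the days under TGF-β (0.00768) and IGF1R in D20 vs D1 (0.00636). Leaving out composition factors gained the same IGFBP7 call (0.00703). RLE factors ended the FURIN difference (0.0101), limma-voom on 12 libraries ended IGF2BP1 (0.0112), and limma on the deposited log2 values ended PDPK1, IGF2BP1 and the differences of FURIN and SHC1 (0.0113 to 0.0142). The share of calls that were higher moved without composition factors from 51.5 to 34.8% for TGF-β at day 1, 46.4 to 56.4% at day 20, 49.3 to 56.3% between the days under TGF-β, 51.8 to 39.7% for D20 vs D1 and 43.5 to 66.9% for the difference of responses, where the median of all genes was 0.13 (log2).

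The IGFBP5 share without scaling by length was 52.4 and 29.6% at day 1 without and with TGF-β and 65.5 and 41.9% at day 20, and IGFBP3 took 0.688% in D20. With the length of all annotated exons, chosen after seeing the data, IGFBP3 took 14.5% in D1+ TGF-β and 0.554% in D20, and IGFBP5 13.5% in D1+ TGF-β, and 37.3 and 19.5% at day 20 without and with TGF-β. Leaving out 1 flask gave IGFBP3 shares of 1.07 to 1.53%, 17.9 to 21.0%, 0.805 to 0.865% and 6.38 to 8.52% and IGFBP5 shares of 20.9 to 24.5%, 10.2 to 11.1%, 32.8 to 34.4% and 15.8 to 17.1% in D1, then D1+ TGF-β, then D20 and last D20+ TGF-β. Depth limits IGF1 and IGFBP2. For IGF2, depth and the counting of reads shared with INS-IGF2 cannot be told apart.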
